A study of Rattus norvegicus with 72 samples.

Results

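Endothelial cells line the sinusoids and larger vessels of the liver, and 10 genes that mark them or carry angiogenic signals to them were followed here: the hyaluronan receptor Lyve1, the scavenger receptors Stab1 and Stab2, the junction proteins Pecam1 and Cdh5, the receptors Kdr, Flt1, Tek and Eng, and the ligand Vegfa. The genes were chosen by name, and each was read from its brightest probe set that the array annotation ties to 1 gene. A probe set met this rule for 8 of the 10 genes, out of 14506 genes in all. Stab1 and Stab2 were not analysed here. Each of the 8 had a single such probe set, so no second probe set checks it.

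The study followed gene expression in rat liver during regeneration after chronic ethanol feeding. Rats received ethanol (EtOH), high-fat (HF) or carbohydrate control (CHO) diets and underwent partial hepatectomy (PHx), the removal of part of the liver. The tissue taken at surgery served as each animal's control liver, and the remnant that stayed in the body was taken 1, 6 or 24 h later from the same animal. Every control liver therefore came from an animal on 1 of the 3 diets, no group of sham-operated animals is listed, and the labels state neither the strain and age nor what the diets contained. In all, 72 arrays came from 36 animals, 4 for each diet and time. The submitters marked 9 arrays as outliers, and 2 control arrays of the CHO diet were set aside because their columns in another table matched other arrays, which left 27 animals with both arrays. At 1 h these were 4 EtOH, 3 HF and 3 CHO animals, at 6 h 4 EtOH, 2 HF and 3 CHO, and at 24 h 3 EtOH, 3 HF and 2 CHO. The names follow the titles and, with 1 exception, the diet tags: the 24 h remnant array of EtOH replicate 4, marked as an outlier and not compared, carries a high-fat tag, while its control liver is titled and tagged EtOH. The source names give HF and CHO the other way round, which leaves every comparison of EtOH with the mean of HF and CHO as it is, turns the sign of HF minus CHO, and exchanges EtOH minus HF with EtOH minus CHO.

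Endothelial cells receive VEGF-A, the product of Vegfa, through Kdr, the receptor that carries most of its mitogenic signal, and through Flt1, which binds the ligand tightly but signals weakly and in a soluble form acts as a decoy. Tek is the receptor of the angiopoietins, and Eng is a co-receptor for bone morphogenetic proteins of the endothelium. In the regenerating liver, hepatocytes enter the cell cycle first and sinusoidal endothelial cells divide later, and endothelial cells are known as a source of growth factors for hepatocytes.

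All values are log2 levels made with RMA (robust multi-array averaging) and adjusted for batch by the authors, and a difference of 1 is a doubling. A change is the remnant's level minus that of the control liver of the same animal. Changes are given as the mean of the 3 diets with its standard error, and a gene passed the test, or was called, where its p, adjusted by Benjamini and Hochberg's method across 14506 genes, was under 0.05. Array medians lay between 4.54 and 4.77, and the mean of each of the 8 genes lay above them, from 5.51 for Cdh5 to 8.53 for Lyve1. Each scan day held animals of 1 time only, so a difference between times and a difference between scan days cannot be told apart, whereas both arrays of an animal shared a scan day. Changes within a scan day are plain means over its compared animals, and their diets were unequal. Scan day 1 held no compared HF animal, and scan day 6 no compared EtOH animal. In bulk tissue, fewer cells of a type and less RNA per cell cannot be told apart.

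The promoters of Kdr, Flt1, Vegfa and Lyve1 are shown first, because these genes changed most and not in the same direction. RefSeq's table for build GRCr8 held windows, 250 bases before and 50 after the start site, for 7 of the 10 genes. Capitals mark matches, on either strand, to 5 short motifs: ACGTG is the core of the hypoxia response element, CCGGAA is a core bound by ETS factors and so is CAGGAA. The letters AGATAA are bound by factors of the GATA family, and CACCC by KLF factors. None of the matches shown overlaps another.
Kdr (chr14:32571813-32572112, plus strand): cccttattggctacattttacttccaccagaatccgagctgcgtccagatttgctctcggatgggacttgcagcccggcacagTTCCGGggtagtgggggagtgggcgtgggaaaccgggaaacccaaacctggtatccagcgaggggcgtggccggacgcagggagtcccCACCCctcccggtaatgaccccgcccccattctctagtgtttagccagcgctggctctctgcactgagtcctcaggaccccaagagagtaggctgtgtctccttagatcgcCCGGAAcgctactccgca
Flt1 (chr12:12333180-12333479, plus strand): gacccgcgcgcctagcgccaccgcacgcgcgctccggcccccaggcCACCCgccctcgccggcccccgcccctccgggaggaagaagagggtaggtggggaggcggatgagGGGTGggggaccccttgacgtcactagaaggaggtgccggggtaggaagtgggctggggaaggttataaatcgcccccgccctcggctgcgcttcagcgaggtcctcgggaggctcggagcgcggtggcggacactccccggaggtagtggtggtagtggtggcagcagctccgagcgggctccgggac
Vegfa (chr9:22452604-22452903, plus strand): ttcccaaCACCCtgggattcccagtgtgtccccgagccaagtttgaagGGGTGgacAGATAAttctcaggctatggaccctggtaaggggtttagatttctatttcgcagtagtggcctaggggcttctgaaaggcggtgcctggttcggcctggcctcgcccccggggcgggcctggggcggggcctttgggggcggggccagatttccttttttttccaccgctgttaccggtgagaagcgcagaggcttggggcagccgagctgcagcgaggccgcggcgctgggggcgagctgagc
Lyve1 (chr1:174410928-174411227, minus strand): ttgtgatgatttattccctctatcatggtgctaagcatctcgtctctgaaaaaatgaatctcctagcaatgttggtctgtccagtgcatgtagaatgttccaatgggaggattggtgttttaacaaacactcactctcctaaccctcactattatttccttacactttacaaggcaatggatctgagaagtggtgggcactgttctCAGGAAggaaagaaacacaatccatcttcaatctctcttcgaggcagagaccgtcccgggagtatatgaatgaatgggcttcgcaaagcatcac

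Kdr held 2 matches to CCGGAA and 1 to CACCC. Flt1 held 2 matches to CACCC, the first Vegfa window held 2 to CACCC and 1 to AGATAA, and Lyve1 held 1 to CAGGAA. None of these windows held ACGTG. Among all 33469 promoter windows, 19.3% held ACGTG, 15% CCGGAA, 29.1% CAGGAA, 11.6% AGATAA and 54.9% CACCC. These letters describe the windows and were not tested as binding sites.

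**Figure D1:**
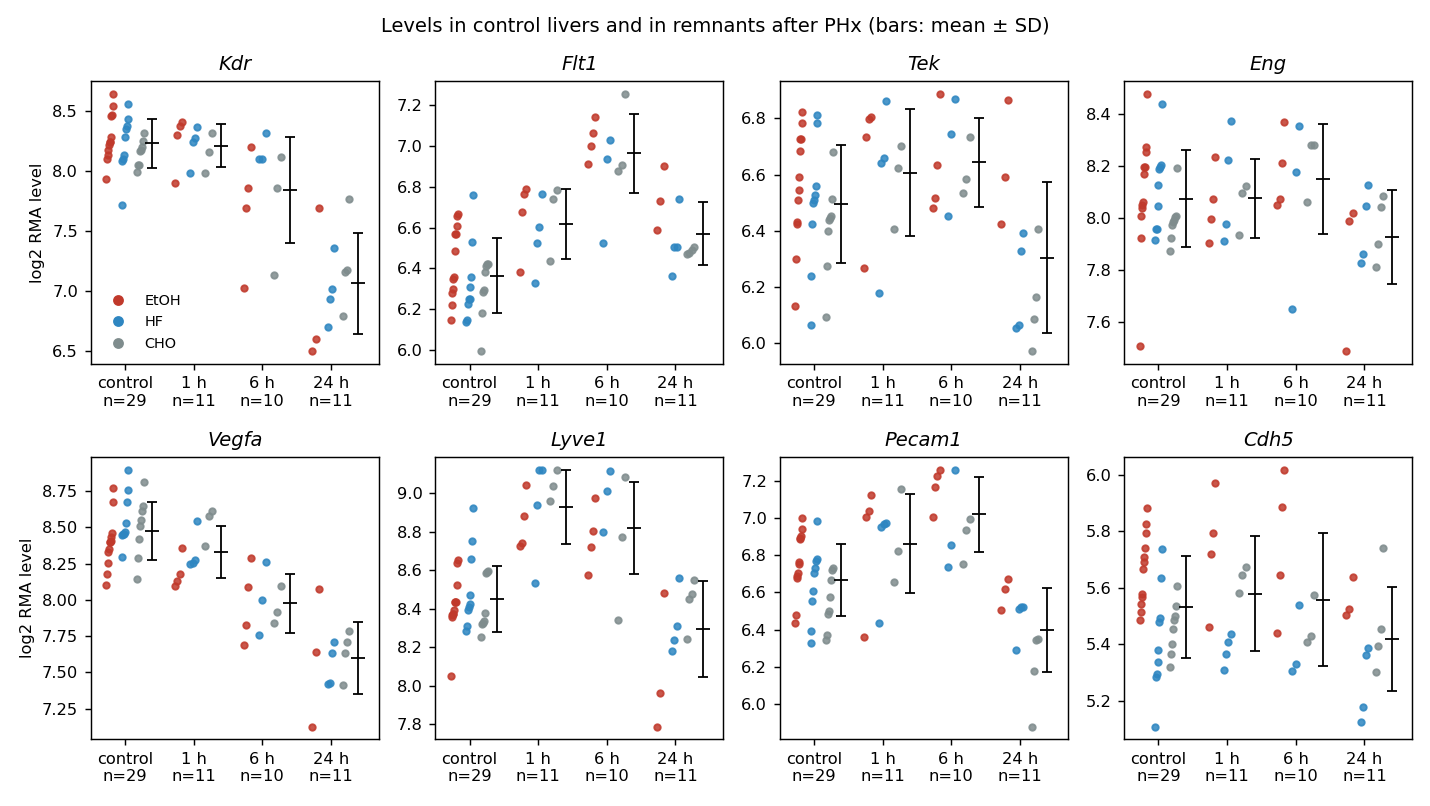
Log2 RMA level (vertical axes, a separate scale for each gene) in control livers and in remnants 1, 6 and 24 h after PHx (horizontal axes), with a point for each array coloured by diet and the mean ± SD as a bar. Mean levels were lowest in the 24 h remnants for every gene but Flt1. They were highest in the 6 h remnants for Flt1, Pecam1, Tek and Eng.

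Kdr was the member with the largest change. At 24 h it was 2.24-fold lower in the remnant than in the control liver of the same animals (log2 -1.16 ± 0.141, adjusted p = 2.01e-07), and it fell in 8 of 8 animals. Its remnant levels were 6.60, 6.50 and 7.69 in EtOH animals, 7.02, 6.70 and 7.36 in HF animals and 7.77 and 6.79 in CHO animals. The control livers of the same animals lay between 8.10 and 8.43, above every remnant. The remnants spread more widely than the control livers, with an SD of 0.494 against 0.117 (n = 8 each), a difference that was not tested. Within scan day 4, which held 5 of these animals, the change was -1.38 (adjusted p = 0.00145), and within scan day 6, which held 2, it was -1.10 (adjusted p = 0.00218).

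Earlier, Kdr did not pass the test. At 1 h its remnant levels ran from 7.90 over a median of 8.29 to 8.41, against 7.94, 8.20 and 8.56 in the control livers, and the change was -0.01 ± 0.125 (adjusted p = 0.975, n = 10). At 6 h the change was -0.24 ± 0.136 (adjusted p = 0.184, n = 9), and the animals differed widely. Kdr was lower by 0.44, 0.42, 1.11 and 0.48 in the remnants of the 4 EtOH animals. It was higher by 0.24 and 0.38 in those of the 2 HF animals, and the changes in the 3 CHO animals were -1.19, 0.12 and -0.18. The 3 animals of scan day 1 alone, none of them HF, gave -0.68 (adjusted p = 0.0218). The 5 of scan day 2, which include both HF animals, gave -0.17 (adjusted p = 0.607). Of 37 alternative fits, 2 called Kdr at 6 h, that of scan day 1 among them. Its changes over the 37 ran from -0.68 to -0.11. The HF 6 h replicate 2 remnant, marked as an outlier and not compared, had the lowest Kdr level of all 72 arrays, 5.60, against 8.35 in its control liver.

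Flt1 was higher in the remnant at all 3 times. At 6 h its levels in the remnants were 7.07, 6.91, 7.14 and 7.0 in EtOH animals, 6.94 and 7.03 in HF animals and 6.91, 7.26 and 6.88 in CHO animals. The control livers of these animals lay between 6.18 and 6.61, below every remnant. The change was 0.69 ± 0.069, or 1.61-fold (adjusted p = 3.27e-09), with a rise in 9 of 9 animals, and 0.53 and 0.81 within scan days 1 and 2 (adjusted p = 0.0095 and 9.93e-05). At 1 h Flt1 rose by 0.27 ± 0.063 (adjusted p = 0.00547), with single animals between 0.0045 and 0.46. At 24 h it was still higher by 0.25 ± 0.071 (adjusted p = 0.00687), with single animals between 0.0067 and 0.59. Remnant and control ranges overlapped at 1 and 24 h, and no scan day alone passed the test at these times. The labels do not say which part of the transcript the probe set covers, so the membrane and soluble forms of Flt1 cannot be told apart.

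Tek and Eng changed less. Tek was called at 6 h only, at 0.26 ± 0.095 (adjusted p = 0.0295), and 2 of the 9 animals carried most of it. Its change was 0.80 in HF replicate 4 and 0.64 in CHO replicate 3, whose control livers were the lowest of the 9 at 6.07 and 6.09, and lay between -0.10 and 0.20 in the other animals. Without HF replicate 4 the change was 0.16 (adjusted p = 0.325), and without CHO replicate 3 it was 0.19 (adjusted p = 0.139). Eng had a change of 0.15 ± 0.062 at 6 h (adjusted p = 0.0478), with 6 of 9 animals higher in the remnant. This call was lost in 17 of the 27 fits that left out 1 animal and with all 72 arrays, as was that of Tek with all 72 arrays, and for Eng the 3 animals of scan day 1 gave -0.11. At 24 h neither gene passed, with changes of -0.16 ± 0.099 for Tek and -0.09 ± 0.064 for Eng.

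Vegfa, the ligand of Kdr and Flt1, fell after 1 h. At 24 h it was 1.83-fold lower in the remnant (log2 -0.87 ± 0.122, adjusted p = 1.86e-06), and it was lower in 8 of 8 animals. Remnant levels were 7.13, 7.64 and 8.07 in EtOH animals, 7.43, 7.71 and 7.64 in HF animals and 7.63 and 7.71 in CHO animals. The control livers of these animals lay between 8.18 and 8.90, above every remnant. The changes within scan days 4 and 6 were -1.04 and -0.73 (adjusted p = 0.00357 and 0.0103). At 6 h Vegfa fell by 0.51 on the log2 scale (SE 0.117, adjusted p = 0.000773), and it was lower in 9 of 9 animals, by between 0.015 and 0.97. At 1 h the change was -0.10 ± 0.108 (adjusted p = 0.674). Vegfa is made mainly by hepatocytes and other cells around the vessel rather than by the endothelium, so its level in whole liver is not a measure of endothelial RNA.

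Lyve1, which marks sinusoidal and lymphatic endothelium, rose first. At 1 h its remnant levels ran from 8.73 over a median of 9.0 to 9.12, against 8.05, 8.42 and 8.92 in the control livers of the same 10 animals. The change was 0.50 ± 0.090, or 1.42-fold (adjusted p = 0.000321), with a rise in 10 of 10 animals, although the ranges overlapped. At 6 h it was 0.39 ± 0.097 (adjusted p = 0.00154), and 8 of 9 animals were higher in the remnant. CHO replicate 2, with -0.25, was the exception, and among the animals compared it also had the largest Kdr decrease at that time. At 24 h Lyve1 did not pass (-0.15 ± 0.101, adjusted p = 0.294), and the 2 scan days that could be fitted went opposite ways, with -0.42 on scan day 4 (adjusted p = 0.0280) and 0.29 on scan day 6 (adjusted p = 0.310).

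Pecam1, an adhesion molecule of endothelial junctions that platelets and leukocytes also carry, was higher at 6 h by 0.37 ± 0.080 (adjusted p = 0.00042) in 9 of 9 animals. Its 6 h remnants ran from 6.74 over a median of 7.0 to 7.26, against 6.39, 6.69 and 7.0 in the control livers, and the ranges overlapped. At 1 h the change of 0.22 ± 0.074 missed the threshold (adjusted p = 0.0641). At 24 h it was -0.25 ± 0.083 (adjusted p = 0.0230), and this call rested on single animals. The CHO replicate 2 remnant held 5.88, the lowest Pecam1 level measured, and without that animal the change was -0.13 (adjusted p = 0.332). Without HF replicate 1 it was -0.19 (adjusted p = 0.0946), without EtOH replicate 3 it was -0.22 (adjusted p = 0.0614), and within scan day 6 it was 0.01.

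Cdh5, the adhesive cadherin of endothelial junctions, did not pass the test at any time after PHx. Its changes were 0.03 ± 0.057 at 1 h, 0.05 ± 0.062 at 6 h and -0.05 ± 0.064 at 24 h (adjusted p = 0.812, 0.632 and 0.589). Single animals lay between -0.35 and 0.28.

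Counted over the 8 genes, 2 passed at 1 h, both higher, where 10.3% of all genes passed, 4.47% higher and 5.83% lower. At 6 h 5 were higher and 1 was lower, where 39.9% of all genes passed, 20% higher and 19.9% lower. At 24 h 1 was higher and 3 were lower, where 34.1% of all genes passed, 16.6% higher and 17.4% lower. The median change of the 8 genes was 0.08, 0.21 and -0.15 at 1, 6 and 24 h, beside -0.014, -0.0028 and -0.030 over all genes.

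**Figure D2:**
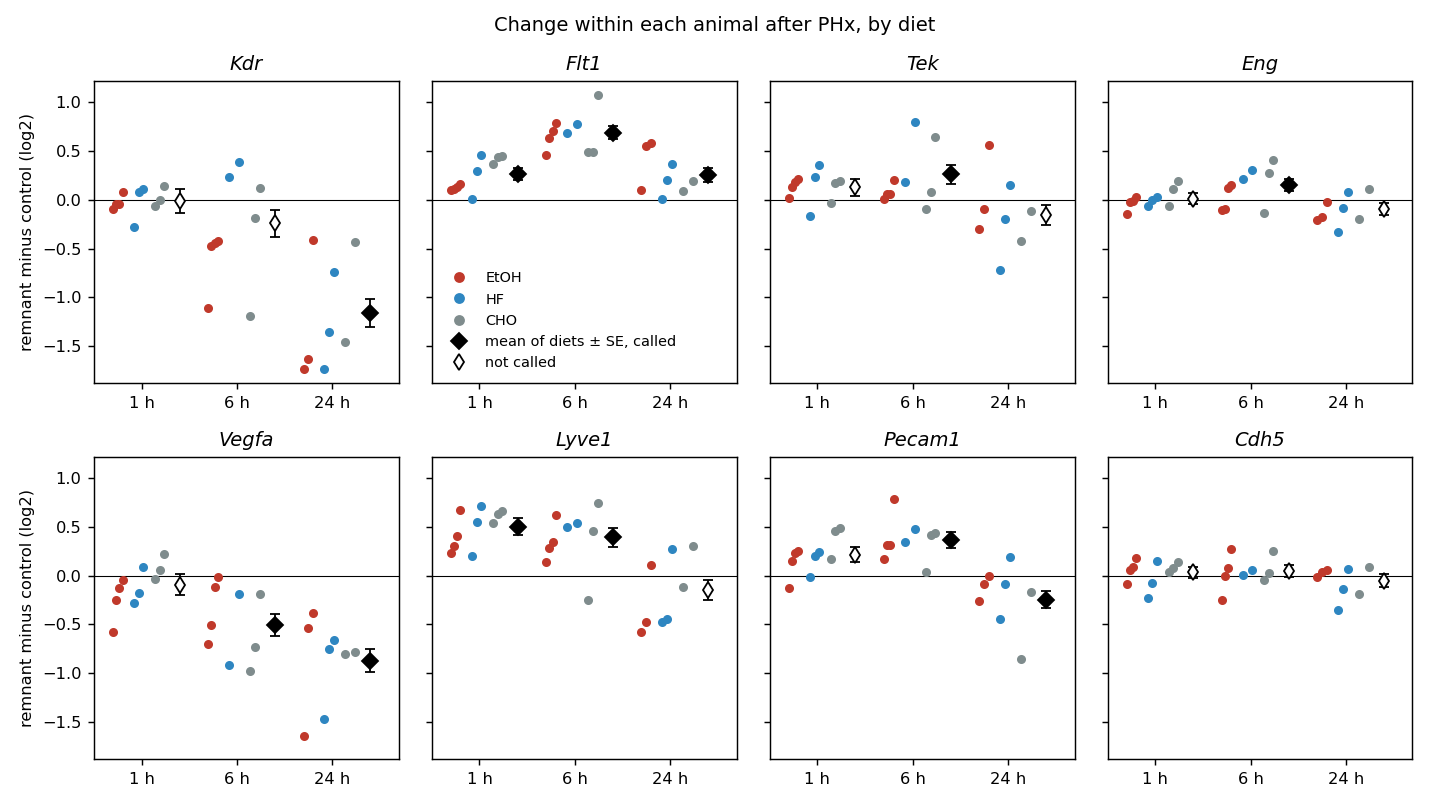
Remnant minus control level in log2 units (vertical axis, shared) for each animal 1, 6 and 24 h after PHx (horizontal axis), coloured by diet, with the mean of the diets ± SE as a diamond that is filled where the adjusted p is under 0.05. The 24 h changes of Kdr and Vegfa and the 6 h changes of Flt1 lie on 1 side of 0 in every animal.

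The time course of the change was compared between the cohorts, which hold different animals. From 6 to 24 h the change became lower in 6 of the 8 genes, where 29% of all genes passed, 14.6% higher and 14.4% lower. The differences were -0.92 ± 0.196 for Kdr (adjusted p = 0.0006), -0.61 ± 0.116 for Pecam1 (adjusted p = 0.000164), -0.54 ± 0.140 for Lyve1 (adjusted p = 0.00402) and -0.44 ± 0.099 for Flt1 (adjusted p = 0.00116). Tek (-0.42, adjusted p = 0.0228) and Eng (-0.25, adjusted p = 0.0354) also passed, and each was lost in some of the fits that left out 1 animal, 5 of 27 for Tek and 10 of 27 for Eng. Vegfa had already dropped by 6 h, and its further difference of -0.36 did not pass (adjusted p = 0.114).

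Between 1 and 6 h 2 genes differed, where 32.7% of all genes passed, 17.7% higher and 14.9% lower. Flt1 rose further, by 0.42 ± 0.093 (adjusted p = 0.000698). Vegfa differed by -0.41 ± 0.159 (adjusted p = 0.0494), a call that was lost in 16 of 27 fits that left out 1 animal. Between 1 and 24 h 4 genes differed, all lower at 24 h, where 28.1% of all genes passed, 15.4% higher and 12.7% lower. These were Kdr (-1.15), Vegfa (-0.77), Lyve1 (-0.65) and Pecam1 (-0.46). Flt1 had nearly the same change at both ends, with a difference of -0.01 ± 0.095.

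No member's change after PHx passed the test between EtOH and the mean of HF and CHO, where 0%, 3.46% and 6.29% of all genes passed at 1, 6 and 24 h in limma. At an unadjusted p under 0.05 there were 0, 1 and 0 members, and with the animal as a random block there were 0 at each time. The member at 6 h was Kdr, whose change was lower in EtOH by 0.56 ± 0.265 (adjusted p = 0.332). No member differed in its change between HF and CHO either, where 0% of all genes passed at each time, with 0 members at an unadjusted p under 0.05. The widest of these differences was also that of Kdr at 6 h, at 0.73 ± 0.358 (adjusted p = 0.936). The standard errors of EtOH minus the mean of HF and CHO ran from 0.115 for Eng at 1 h to 0.288 for Kdr at 24 h. Differences well above 1 such error can still miss the test, as that of Kdr at 6 h did.

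In the livers removed at PHx, Cdh5 was the member that differed by diet. Its level ran from 5.49 over a median of 5.68 to 5.88 in 12 EtOH livers, from 5.11 over 5.38 to 5.74 in 9 HF livers and from 5.32 over 5.47 to 5.61 in 8 CHO livers. The ranges overlapped. EtOH minus the mean of HF and CHO was 0.25 ± 0.062, or 1.19-fold (adjusted p = 0.00511), where 16.8% of all genes passed, 9.08% higher and 7.76% lower. The difference was 0.27 ± 0.070 against HF (adjusted p = 0.00912), where 13.5% of all genes passed, and 0.23 ± 0.077 against CHO (adjusted p = 0.0548), where 11.8% passed. In the first 2 of these comparisons 1 of the 8 members passed, a share not above that of all genes. Against CHO in limma, 0 members passed and 2, Cdh5 and Pecam1, had an unadjusted p under 0.05. The Cdh5 difference was 0.22, 0.32 and 0.20 within the 1, 6 and 24 h cohorts, none of which passed alone (adjusted p = 0.301, 0.0679 and 0.707). Without the control liver of EtOH 24 h replicate 4, the animal whose remnant carries another diet tag, the difference was 0.21 (adjusted p = 0.0196).

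Pecam1 averaged 6.76 ± 0.177 in EtOH livers, 6.65 ± 0.205 in HF livers and 6.55 ± 0.149 in CHO livers (SD, n = 12, 9 and 8). Its difference of 0.19 ± 0.072 between EtOH and the mean of the other diets missed the threshold (adjusted p = 0.0828). The other 6 genes differed by between -0.16 for Vegfa and 0.15 for Flt1, with adjusted p of 0.186 or more. The Vegfa difference varied between cohorts: it was -0.38 within the 6 h cohort, which passed the test alone (adjusted p = 0.0350), and -0.01 and -0.09 within the 1 and 24 h cohorts (adjusted p = 0.988 and 0.907). In the 6 h cohort Vegfa was 8.40, 8.33, 8.40 and 8.10 in EtOH livers, 8.75, 8.67 and 8.45 in HF livers and 8.81, 8.64 and 8.29 in CHO livers. HF and CHO livers differed in 0 of the 8 genes in limma, where 0.165% of all genes passed, and in 0 at an unadjusted p under 0.05.

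Markers of other cells were read in the same livers. Of 18 macrophage and Kupffer cell markers measured, 10 were higher and 0 lower in EtOH livers, with a median difference of 0.35 beside 0.010 over all genes. Their summed level (log2 of the summed linear levels) ran from 11.7 to 12.3 in EtOH livers, from 11.3 to 12.0 in HF livers and from 11.4 to 12.0 in CHO livers. Of 34 other endothelial markers 3 were higher and 0 lower in EtOH livers, where 16.8% of all genes passed and 9.08% were higher. The list was below the first share and near the second. Its called genes were Cd93 (by 0.32), S1pr1 (by 0.39) and Oit3 (by 0.24). Of 17 stellate cell markers 2 were higher and 1 lower, a share near the 16.8% of all genes that passed. Of 8 cholangiocyte markers 2 were higher and 0 lower, the cadherin Cdh1 by 0.37 and osteopontin, Spp1, by 0.32 (adjusted p = 0.0309 and 0.0345). Of 18 hepatocyte, 16 lymphocyte, 12 neutrophil and 6 erythroid and platelet markers 0 passed in limma. Their part in the Cdh5 difference was not tested.

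**Figure D3:**
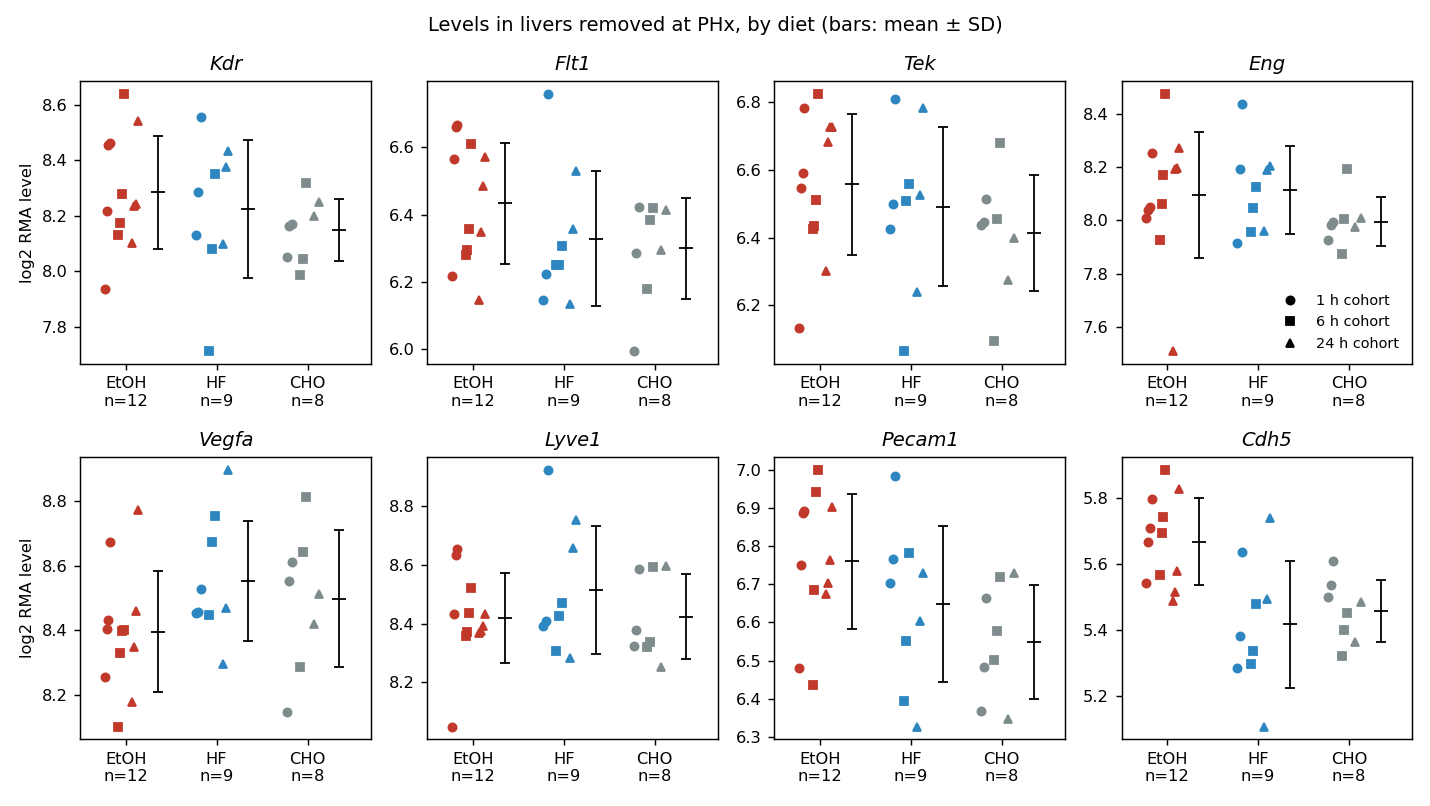
Log2 RMA level (vertical axes, a separate scale for each gene) in livers removed at PHx from EtOH, HF and CHO animals (horizontal axes), with a point for each array, its shape giving the cohort, and the mean ± SD as a bar. Cdh5 is higher in EtOH livers, with ranges that overlap those of the other diets, and Pecam1 is highest on average in EtOH livers and lowest in CHO livers.

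In the remnants themselves, EtOH minus the mean of HF and CHO passed for 0 of the 8 genes at 1, 6 and 24 h in limma, where 3.33%, 3.53% and 5.94% of all genes passed. At an unadjusted p under 0.05 there was 1 member at each time, Cdh5 at 1 and 6 h and Tek at 24 h. The Cdh5 differences, 0.23 ± 0.113 at 1 h, 0.34 ± 0.115 at 6 h and 0.14 ± 0.120 at 24 h, had the sign of the difference in control livers (adjusted p = 0.375, 0.111 and 0.561). Those control livers came largely from the same animals, so the shared sign is not independent. Tek at 24 h was 6.59, 6.87 and 6.42 in EtOH remnants, above the mean of 6.21 ± 0.175 in 4 HF remnants and 6.16 ± 0.183 in 4 CHO remnants, a difference of 0.44 ± 0.155 (adjusted p = 0.0966).

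Among all genes, those whose changes over the 27 animals came nearest to those of a member were found by the root mean square distance between both sets of changes, divided by the member's own root mean square change. A distance of 0 would be an identical pattern. Kdr was nearest to Decr1, an enzyme of mitochondrial fatty acid oxidation (0.406), and Cyp27a1, sterol 27-hydroxylase (0.466), both nearer than the nearest member, Vegfa (0.615). Vegfa was nearest to Dmgdh, dimethylglycine dehydrogenase (0.428), and Acox3, an oxidase of peroxisomes (0.460). Flt1 was nearest to Actr3, a subunit of the actin-nucleating Arp complex (0.442), and Fn1, fibronectin (0.472). Lyve1 was nearest to Fcgr2b, an inhibitory receptor for immunoglobulin that liver sinusoidal endothelium carries (0.589), and Stom, the membrane protein stomatin (0.613). The nearest genes of Pecam1 and Tek lay at 0.635 and 0.789, and those of Eng and Cdh5 at 0.805 and 0.914. These distances describe the animals in hand, and the nearest of 14506 genes is near in part because it was picked.

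The other endothelial markers were read from a list of 40 genes, of which 34 were measured. At 1 h 11 were higher and 2 lower, at 6 h 17 were higher and 3 lower, and at 24 h 3 were higher and 9 lower. Of all genes, 10.3%, 39.9% and 34.1% passed at these times, so the share at 24 h is near that of all genes. Their median changes were 0.20, 0.19 and -0.10. Thbd, thrombomodulin, which turns thrombin into an anticoagulant, rose by 1.39 ± 0.123 at 1 h and 1.61 ± 0.134 at 6 h (adjusted p = 6.96e-09 and 1.08e-10). Klf2, a transcription factor that blood flow induces, rose by 1.18 ± 0.102 at 1 h (adjusted p = 4.84e-09). Cd93, a receptor of endothelial and myeloid cells, rose by 1.04 ± 0.087 at 6 h (adjusted p = 1.17e-10). Esam, an adhesion molecule of tight junctions, rose at all 3 times, by 0.52, 0.76 and 0.62 (adjusted p = 1.9e-06, 5.8e-10 and 7.46e-08).

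At 24 h, when the share called was near that of all genes, called genes of the list went both ways. Calcrl, a receptor of calcitonin family peptides, fell by 0.69 on the log2 scale (adjusted p = 1.15e-05), whereas Ramp2, the protein that pairs with it to make the adrenomedullin receptor, rose by 0.79 ± 0.121 (adjusted p = 6.72e-06). The summed level of the list ran from 11.7 to 12.1 in 1 h remnants, from 11.7 to 12.1 in 6 h remnants and from 11.4 to 11.7 in 24 h remnants, against 11.5 to 12.0 in 29 control livers.

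**Figure D4:**
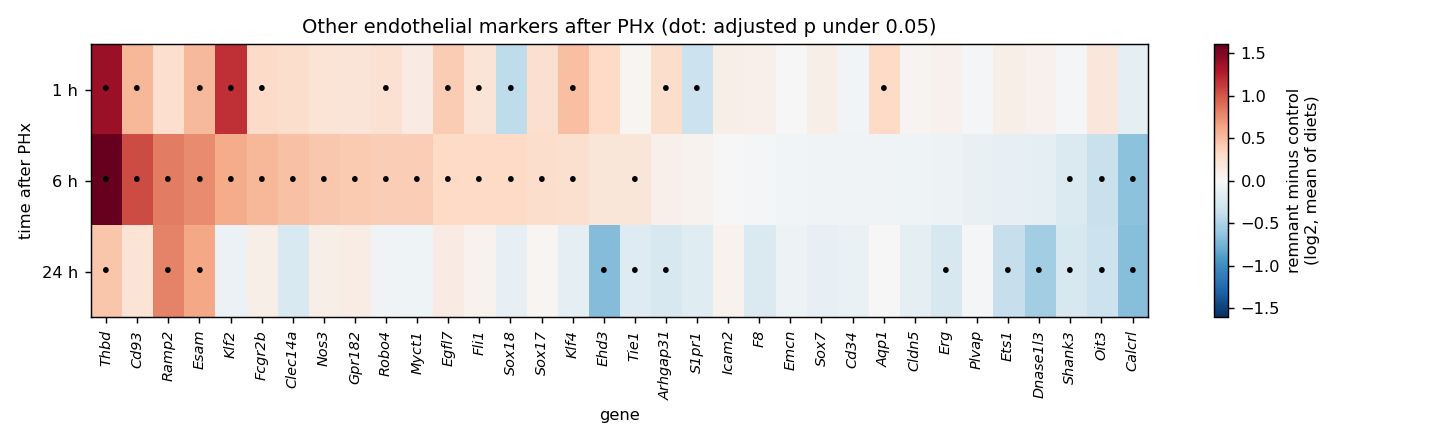
Log2 change after PHx (colour, remnant minus control, mean of the diets) of 34 other endothelial markers (horizontal axis, ordered by the 6 h change) at 1, 6 and 24 h (vertical axis), with a dot where the adjusted p is under 0.05. Thbd, Cd93, Ramp2 and Esam have the highest values at 6 h, and Calcrl the lowest at 6 h.

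Of 28 measured genes of the VEGF and angiopoietin pathway, 4 were higher and 1 lower at 1 h, 7 higher and 10 lower at 6 h, and 0 higher and 13 lower at 24 h. Of all genes, 10.3%, 39.9% and 34.1% passed at these times. The median change at 24 h was -0.22, beside -0.030 over all genes. At 1 h the rise was led by Nr4a1, an immediate early nuclear receptor (3.26 ± 0.186), Thbs1, thrombospondin, which inhibits angiogenesis (2.48 ± 0.206), and the protease Adamts1 (1.76 ± 0.098), with adjusted p of 1.61e-12, 2.39e-09 and 1.05e-12. Thbs1 was still higher at 6 h, by 1.58, and Adamts1 and Nr4a1 were still called higher too. Angptl2, an angiopoietin-like protein, and Plcg1, the phospholipase that Kdr activates, fell at 6 h by 1.07 and by 0.64 on the log2 scale. At 24 h Notch1 (-0.49) and its endothelial ligand Dll4 (-0.62) were among the genes that fell (adjusted p = 1.19e-06 and 1.05e-05). Flt4, the receptor of VEGF-C, and the co-receptor Nrp1 were also lower at 24 h (-0.54 and -0.25, adjusted p = 2.31e-05 and 0.0213), and were named after their values were seen. In control livers 0 genes of the list were higher and 4 lower with EtOH, a share near the 16.8% of all genes that passed. Among them were Adamts1 (-0.94), Angptl2 (-0.57) and Rcan1 (-0.62), an inhibitor of calcineurin.

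Around Eng, 21 genes of the endoglin and BMP pathway were measured, with 4 higher and 2 lower at 1 h, 9 higher and 0 lower at 6 h, and 0 higher and 7 lower at 24 h. Of all genes, 10.3%, 39.9% and 34.1% passed at these times, and the shares of the list at 6 and 24 h are near these. By direction, 20% of all genes were higher at 6 h and 17.4% lower at 24 h. Tgfb3, a ligand of the TGF-beta family, rose by 1.65 at 1 h and 1.94 at 6 h (adjusted p = 8.02e-09 and 1.03e-10), and Id1, a target gene of BMP signalling, by 0.55 and 0.93 (adjusted p = 0.000304 and 3.93e-08). At 24 h the receptor Bmpr2 (-0.57), the shared mediator Smad4 (-0.39) and the hepatocyte hormone gene Hamp (-1.10) were lower. Eng itself did not pass at 1 or 24 h.

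The list of angiocrine factors held signals by which endothelium acts on its neighbours, and also the receptors Ackr3 and Cxcr4. Of its 15 measured genes, 3 also count in the endoglin and BMP list and 1 in the VEGF and angiopoietin list. Of the 15, 2 were higher and 1 lower at 1 h, 6 higher and 1 lower at 6 h, and 4 higher and 3 lower at 24 h. Of all genes, 10.3%, 39.9% and 34.1% passed at these times. Hgf, hepatocyte growth factor, rose by 0.42 ± 0.109 at 1 h and by 0.80 ± 0.123 at 24 h (adjusted p = 0.0119 and 7.58e-06). It was also called higher at 6 h, and was lower by 0.30 in EtOH control livers (adjusted p = 0.0112). The chemokine Cxcl12 fell by 2.01 at 6 h and by 1.11 at 24 h, while Ackr3, its scavenging receptor, rose by 1.36, 1.21 and 0.60 at 1, 6 and 24 h. In EtOH control livers Rspo3, an endothelial amplifier of Wnt signals, and Cxcr4 were also lower, by 0.30 and 0.36. With Hgf, these were all the genes of the list called there, a share near the 16.8% of all genes that passed.

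Vegfa is a known target of the hypoxia response, of which 29 genes were measured. At 1 h 6 were higher and 0 lower, at 6 h 7 were higher and 7 lower, and at 24 h 2 were higher and 9 lower. Of all genes, 10.3%, 39.9% and 34.1% passed at these times, so the share at 24 h is near that of all genes. Epas1, a hypoxia-inducible factor of endothelium and hepatocytes, rose by 0.45 at 1 h and fell by 0.80 at 24 h (adjusted p = 0.000413 and 1.08e-07), and Pfkfb3, an activator of glycolysis, rose by 1.19 at 1 h. In EtOH control livers 4 genes were higher and 4 lower, where 16.8% of all genes passed. Among them, Hif1a was lower by 0.50 and Pgk1, a glycolytic enzyme, was higher by 0.54 (adjusted p = 1.18e-06 and 7.69e-07).

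Markers of other liver cells were read at the same 3 times, at which 10.3%, 39.9% and 34.1% of all genes passed. Of 18 macrophage and Kupffer cell markers 8 were higher and 0 lower at 1 h, 5 higher and 3 lower at 6 h, and 5 higher and 4 lower at 24 h. The share at 6 h is near that of all genes. Their summed level ran from 11.6 to 12.5 at 1 h, from 11.3 to 12.5 at 6 h and from 11.6 to 12.3 at 24 h, against 11.3 to 12.3 in control livers.

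Of 17 stellate cell markers 1 was higher and 1 lower at 1 h, 1 higher and 6 lower at 6 h, a share near that of all genes, and 4 higher and 4 lower at 24 h. At 24 h, when Kdr was lowest, Colec11 (-0.77) and Reln (-0.71) were lower and Rgs5, a marker of pericytes, was higher (0.62). Of 18 hepatocyte markers 2 were higher and 0 lower at 1 h, 6 higher and 7 lower at 6 h, and 3 higher and 7 lower at 24 h. Of 8 cholangiocyte markers 0 passed at 1 h, 2 were lower at 6 h, and 1 was higher and 2 lower at 24 h, a share near that of all genes.

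Of 6 erythroid and platelet markers 1 was higher at 1 h, 2 were lower at 6 h and 3 were lower at 24 h. The first was Pf4, a chemokine of platelets, which was higher by 0.51 (adjusted p = 0.00408) at the time when Lyve1 and Flt1 were higher too. The summed level of these markers ran from 10.9 to 11.7 in 1 h remnants, from 9.24 to 11.5 in 6 h remnants and from 9.09 to 11.3 in 24 h remnants, against 9.80 to 12.4 in control livers. Of 12 neutrophil markers, all 12 with a mean under the array medians in control livers, 0 passed at 1 h, 6 were higher at 6 h and 5 were higher at 24 h. Of 16 lymphocyte markers 0 passed at 1 h, 1 was lower at 6 h and 2 were lower at 24 h, below the share of all genes. The part of these markers in the changes of the 8 genes was not tested.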

How the data were processed

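Liver RNA was hybridised to Affymetrix Rat Gene arrays. The submitters' processing notes name RMA and Affymetrix Expression Console as the source of the deposited log2 values, and per the file headers the authors corrected them for batch by a mixed model. The corrected log2 values differ from the uncorrected ones by 1 constant for each probe set on each scan day, with departures of at most 0.00015. RMA shrinks fold changes of dim genes, and the tables used hold no detection calls. The number of arrays limits the precision.

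Of 29214 probe sets, 15310 are annotated to 1 gene, 323 to several, and 13581 are not listed. For each of 14506 genes the brightest probe set on average was used, dim genes included. Changes were fitted in limma 3.58.1 (R 4.3.3, statmod 1.5.0) on 54 arrays with the animal as a fixed block, since the animal label pairs the arrays (18 residual degrees of freedom; correlation of both arrays' deviations from their group means -0.70 to 0.44, median 0.20, over 27 pairs). The 29 control and 32 remnant arrays were fitted with scan day as a block (19 and 18 residual degrees of freedom). The fits were tested on simulated data. Replicates are separate animals. In the authors' table without outliers, the control columns of CHO replicate 3 (1 h) and CHO replicate 1 (6 h) matched the remnants of those animals, with correlations across probe sets of 0.985 and 0.992, compared with 0.276 and -0.365 for the arrays they are named after. Both controls were set aside. A remnant time of 12 h was not analysed here.

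The 10 genes and all lists were chosen with earlier results of these data known. From each list up to 3 called genes with the smallest p were named in each of 4 comparisons (the mean change at 1, 6 and 24 h, and EtOH minus the mean of HF and CHO in control livers), and 2 nearest genes per member. Alternatives changed the table, arrays, normalization, filter, blocks and animals.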

Additional observations from a re-analysis of the deposited data

Results flagged for a closer look

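In 7 of 72 groups of animals on 1 diet, 1 array stood apart from the others by Dixon's criterion, which flags about 1 group in 20 by chance. After PHx, the Kdr change of EtOH 6 h replicate 3 was -1.11, while the other 3 animals lay between -0.48 and -0.42. Among the remnants, EtOH 1 h replicate 2 had the lowest level of its group for both Pecam1 (6.36, the others between 7.0 and 7.12) and Tek (6.27, the others between 6.73 and 6.80). Pecam1 was also low in the remnants of HF 1 h replicate 3 (6.44, the others between 6.95 and 6.97) and HF 24 h replicate 1 (6.29, the others between 6.51 and 6.52). Vegfa was high in the remnant of HF 1 h replicate 1 (8.54, the others between 8.25 and 8.28), and Eng was high in the CHO 6 h replicate 2 control liver (8.19, the others between 7.87 and 8.01).

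The change after PHx differed between times in 12 tests. From 6 to 24 h it became lower by -0.92 for Kdr, -0.61 for Pecam1, -0.54 for Lyve1, -0.44 for Flt1, -0.42 for Tek and -0.25 for Eng. Between 1 and 24 h the differences were -1.15 for Kdr, -0.77 for Vegfa, -0.65 for Lyve1 and -0.46 for Pecam1. Between 1 and 6 h they were 0.42 for Flt1 and -0.41 for Vegfa. Time and scan day cannot be told apart in these comparisons.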

How the results depend on the processing

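The fall of Kdr and Vegfa at 24 h and the rise of Flt1 at 6 h passed the test under each of 37 alternatives, with changes of -1.38 to -0.99, -1.04 to -0.73 and 0.53 to 0.81. Of these alternatives, 27 each left out 1 animal. Leaving out an animal of another time keeps the change as it is and alters only its error. For the change after PHx, where fits within a scan day hold fewer animals, scan day 7 alone gave 1 called member and scan day 8 alone 0 at 1 h, scan day 1 alone 2 at 6 h and scan day 6 alone 2 at 24 h, with Eng at -0.11 on scan day 1 and Pecam1 at 0.0133 on scan day 6 (reversed signs). In control livers, EtOH minus HF gave 0 within each cohort, and EtOH minus the mean of HF and CHO gave 0 in the 1 h and 24 h cohorts, 1 in the 6 h cohort (Vegfa at -0.38 in place of Cdh5), and 2 with all 72 arrays and with renewed quantile normalization. For EtOH minus CHO, with 0 as reported, the count was 1 in the authors' table without outliers, with renewed quantile normalization, without the scan-day block and with the replicate block by cohort and replicate number, 2 among genes above the array median and with the 2 CHO control arrays as named, and 3 with all 72 arrays. In 24 h remnants, renewed quantile normalization and leaving out the scan-day block each gave 1. The scan days also differ in diet make-up, and the cause of these moves was not tested.

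Leaving out 1 animal gave 0 to 2 called members for EtOH minus CHO and 1 to 2 for EtOH minus the mean of both in control livers, 0 to 1 in 6 h and in 24 h remnants, and 1 to 2 for the difference between 1 and 6 h. The replicate block changed no other count in control livers and remnants by over 1.5 times. Control arrays of different diets with the same number showed no shared deviation (median correlation -0.039 over 25 pairs, 1 of them over 0.1). Even arrays of 1 animal had a median of only 0.20, with 17 of 27 pairs over 0.1. Animals with the same number often carry consecutive animal labels, so these correlations cannot settle whether the numbers match animals across diets. Fits with scan day in place of the animal (no replicate block) or with the animal as a random block (consensus correlation 0.161) lost the calls of Eng at 6 h and between 6 and 24 h and of Pecam1 at 24 h. The random block also lost Tek at 6 h and called Vegfa between 6 and 24 h. No member has another probe set, so that alternative gave no value.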
